A study of Mus musculus with 17 samples.

Results

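A set of 6 genes through which cells read the Fc part of immunoglobulin G (IgG) was followed over 17 RNA-seq libraries of sorted synovial macrophages. They were Fcgr1, Fcgr2b, Fcgr3 and Fcgr4, which encode the Fcγ receptors FcγRI, FcγRIIb, FcγRIII and FcγRIV, with Fcer1g, which encodes the common Fc receptor γ chain, and Fcgrt, which encodes the heavy chain of the neonatal Fc receptor FcRn. All 6 were found by symbol among the 22859 genes of the count table, and all 6 passed the filter on low counts that left 15272 genes for testing.

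The synovium is the membrane that lines joints, and the macrophages came from adult mice whose genotype is labelled Fcgr2b-KO in every library, controls included. No wild-type library was analysed here, so each comparison is made within that genotype. MHCII+CD11c+, MHCII+CD11c− and LYVE1+CX3CR1+ macrophages were sorted from control mice (3 libraries per subset) and from mice given immune complexes (IC, antibody bound to its antigen) into a vein 8 h earlier (2, 3 and 3 libraries). The study's methods describe the IC as ovalbumin with rabbit antibody to it, and describe a block of CD16 and CD32, the proteins of Fcgr3 and Fcgr2b, with antibody before sorting. The labels do not say whether libraries of a group came from separate mice, so p-values measure the spread between these libraries, which may be technical.

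As background, Fcγ receptors bind IgG on complexes at the cell surface. FcγRI, FcγRIII and FcγRIV are activating receptors that signal through the tyrosine-based motif of the γ chain, which also holds them at the surface, whereas FcγRIIb carries an inhibitory motif in its own tail and recruits the phosphatase SHIP1. The balance of activating and inhibitory receptors sets how strongly a macrophage answers to IC. FcRn works inside the cell, where it binds IgG at the acid pH of endosomes together with β2-microglobulin and returns it to the surface or passes IC on towards antigen presentation.

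Fcgr2b, Fcgr4, Fcgr3 and Fcer1g lie in a cluster on mouse chromosome 1 (GENCODE M21, GRCm38, the build of the files). Fcgr2b spans 170958617 to 170976547 on the minus strand, Fcgr4 171018920 to 171029761 on the plus strand, Fcgr3 171051174 to 171064935 and Fcer1g 171229572 to 171234365, both on the minus strand. Fcgr1 lies apart, on the minus strand of chromosome 3 (96282909 to 96293969), as does Fcgrt, on the minus strand of chromosome 7 (45092990 to 45103851). The promoters of Fcgr1, Fcgr4 and Fcer1g are shown, since these are the members whose fitted levels after IC were highest above control. Each run holds 250 bases before and 50 after the start of the gene, read 5′ to 3′ on the gene's own strand (RefSeq, GRCm38.p6), and capitals mark letters that match the interferon-type elements GAS (TTCNNNGAA) or ISRE (GAAA, any 2 bases, GAAA) on either strand. They lie at chr3:96293920-96294219 (minus), chr1:171018676-171018975 (plus) and chr1:171234300-171234599 (minus).
Fcgr1: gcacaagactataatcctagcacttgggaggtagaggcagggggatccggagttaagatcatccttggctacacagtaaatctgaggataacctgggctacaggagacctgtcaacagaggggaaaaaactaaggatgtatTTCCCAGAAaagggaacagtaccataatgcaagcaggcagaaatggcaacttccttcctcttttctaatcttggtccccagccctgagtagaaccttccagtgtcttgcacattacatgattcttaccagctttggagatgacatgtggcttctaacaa
Fcgr4: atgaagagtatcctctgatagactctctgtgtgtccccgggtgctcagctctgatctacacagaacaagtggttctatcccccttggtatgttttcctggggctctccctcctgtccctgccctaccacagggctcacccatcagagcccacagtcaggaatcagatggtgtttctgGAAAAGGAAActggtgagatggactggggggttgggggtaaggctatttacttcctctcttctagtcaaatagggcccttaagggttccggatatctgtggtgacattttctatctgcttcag
Fcer1g: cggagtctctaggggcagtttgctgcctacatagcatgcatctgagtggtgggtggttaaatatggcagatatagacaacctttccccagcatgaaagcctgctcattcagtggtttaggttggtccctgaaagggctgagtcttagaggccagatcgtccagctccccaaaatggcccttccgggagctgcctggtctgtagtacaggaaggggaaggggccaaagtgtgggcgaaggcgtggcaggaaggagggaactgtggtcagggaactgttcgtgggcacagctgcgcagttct

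The Fcgr1 window holds GAS letters at position −109 from the start, and the Fcgr4 window holds ISRE letters at −73. Of 32851 promoter windows of the same length, 8.30% hold a GAS match and 3.44% an ISRE match. The windows of Fcgr2b, Fcgr3, Fcer1g and Fcgrt hold neither. The letters AGGAAG, which hold the GGAA core of ETS factors such as the macrophage factor PU.1, occur on either strand in the windows of Fcgr1, Fcgr3, Fcgr4 and Fcer1g and in 35.4% of all windows. The glucocorticoid-type letters GNACA, any 3 bases, TGTNC occur in none of the 6 and in 0.475% of all windows. A match is a description of letters only.

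Libraries held 2301913 to 7248939 counts. The unit of level is CPM, the count of a gene adjusted to the size of its library after TMM normalisation, and 3 counts, taken as the floor, were worth 0.414 to 1.30 CPM before that scaling. Macrophage markers were present in every library, with a summed level of 7374 to 13825 CPM for Cd68, Csf1r, Adgre1, Mertk, Lyz2 and Aif1. Itgax, which encodes CD11c, followed the labels, with means of 348 and 387 CPM in the MHCII+CD11c+ groups and at most 12.9 CPM in the others. Summed LYVE1-subset markers (Lyve1, Cx3cr1, Vsig4 and Timd4) lay at 862 to 1633 CPM in MHCII+CD11c− controls and 1727 to 3200 CPM after IC. In LYVE1+CX3CR1+ macrophages they lay at 3430 to 4239 and 5467 to 6405 CPM. Of these genes Cx3cr1 alone had lower means after IC, 70.5 against 100 CPM in MHCII+CD11c− and 268 against 432 CPM in LYVE1+CX3CR1+ macrophages. None of them had an adjusted p under 0.05 for IC against control in either subset (edgeR). MHC class II markers (H2-Aa, H2-Ab1, H2-Eb1 and Cd74) summed to 16325 to 17607 CPM in MHCII+CD11c− controls and 11130 to 11574 CPM after IC. No MHC class II marker had an adjusted p under 0.05 for IC against control in MHCII+CD11c− macrophages. The part of these shifts in the Fc receptor values was not tested. At equal depth, 11547 to 13847 genes were detected in the 3 LYVE1+CX3CR1+ libraries after IC and 13816 in control library 3 of MHCII+CD11c+ macrophages, against 15232 to 17678 in the other 13.

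**Figure D1:**
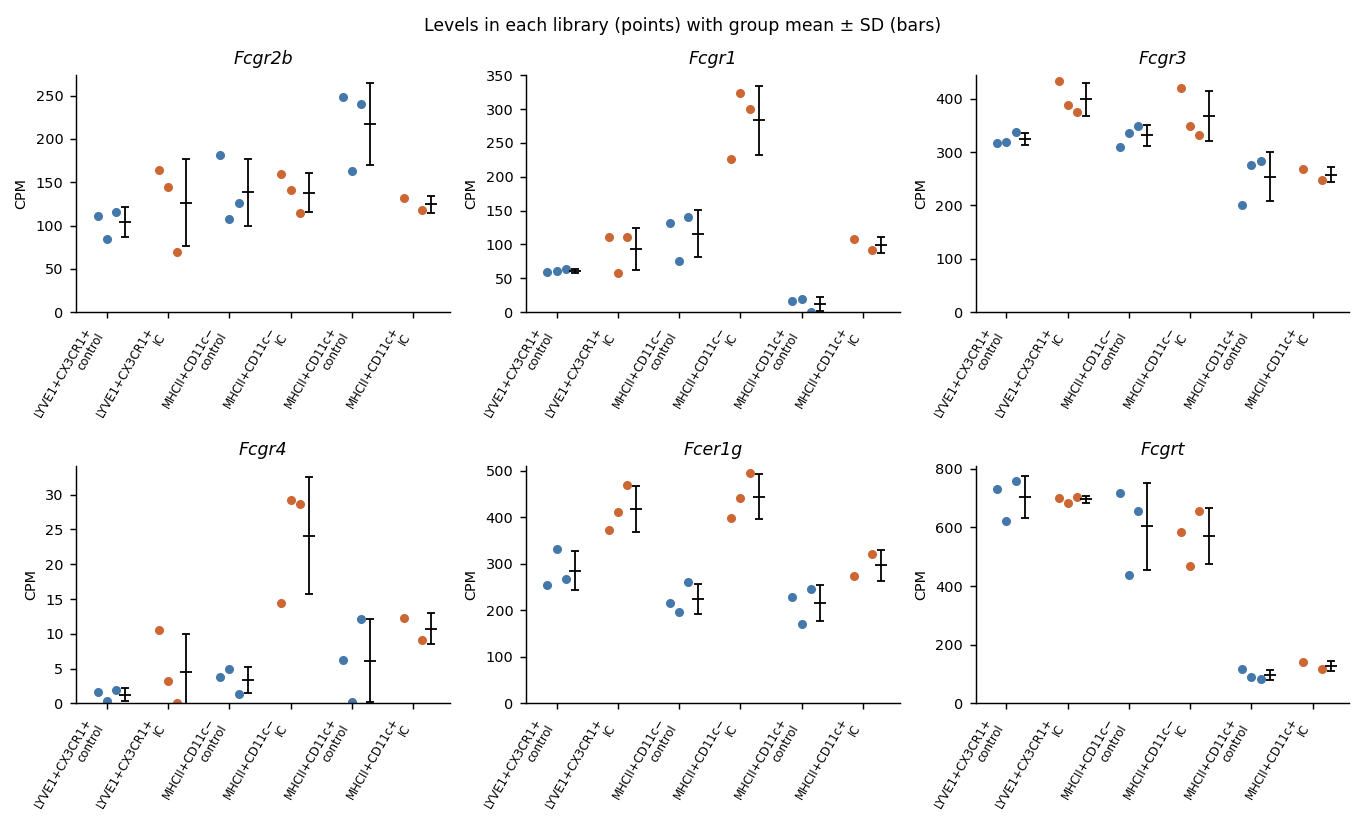
CPM of the 6 genes in each library (blue points, control; orange points, IC) by macrophage subset, with the group mean and SD as a black bar beside the points (n = 3 libraries per group, 2 for MHCII+CD11c+ after IC). Fcgrt is low in the 5 MHCII+CD11c+ libraries, Fcgr1 is lowest in the 3 MHCII+CD11c+ controls, and Fcer1g lies higher after IC than in control within each subset.

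The inhibitory receptor gene Fcgr2b, which the labels call knocked out, had counts in 17 of 17 libraries. Control libraries held 706, 314 and 832 counts in LYVE1+CX3CR1+ macrophages, 851, 608 and 377 in the MHCII+CD11c− subset and 1168, 878 and 637 in the MHCII+CD11c+ subset. After IC there were 562, 460 and 167, then 717, 683 and 416, and then 896 and 642 counts. The lowest of these lies far above the floor of 3 counts. The table gives 1 value per gene, so which exons the reads cover, and whether they can encode the receptor, is not shown by these data.

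How much of the Fcgr2b count could come from its neighbour was examined on the transcripts. Fcgr2b and Fcgr3 arose from related genes and share stretches of sequence in the part that encodes the extracellular domains. Of the 3495 windows of 50 bases in the longest coding transcript of Fcgr2b, 166 (4.75%) occur unchanged in Fcgr3 transcripts. In any other gene, Fcgr3 included, 397 (11.4%) occur, so Fcgr3 is not the only gene that shares sequence with Fcgr2b. Of 1298 such windows of Fcgr3, 166 (12.8%) occur in Fcgr2b and none in another gene alone. Windows shared by Fcgr2b and Fcgr3 begin between positions 402 and 668 of the Fcgr2b transcript, whose coding sequence runs from 125 to 1144. With windows of 100 bases, 1.28% of Fcgr2b and 3.53% of Fcgr3 are shared between these genes, and 3.54% of Fcgr2b occurs in any other gene. With 150 bases, the length of a read, 0 of 3395 windows of Fcgr2b occur in any other gene. No window of 50 bases of Fcgr1, Fcgr4, Fcer1g or Fcgrt is shared with any other gene. How reads with several alignments were counted is not given in the sources used here, so values of Fcgr2b and Fcgr3 are uncertain by what such reads add.

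**Figure D2:**
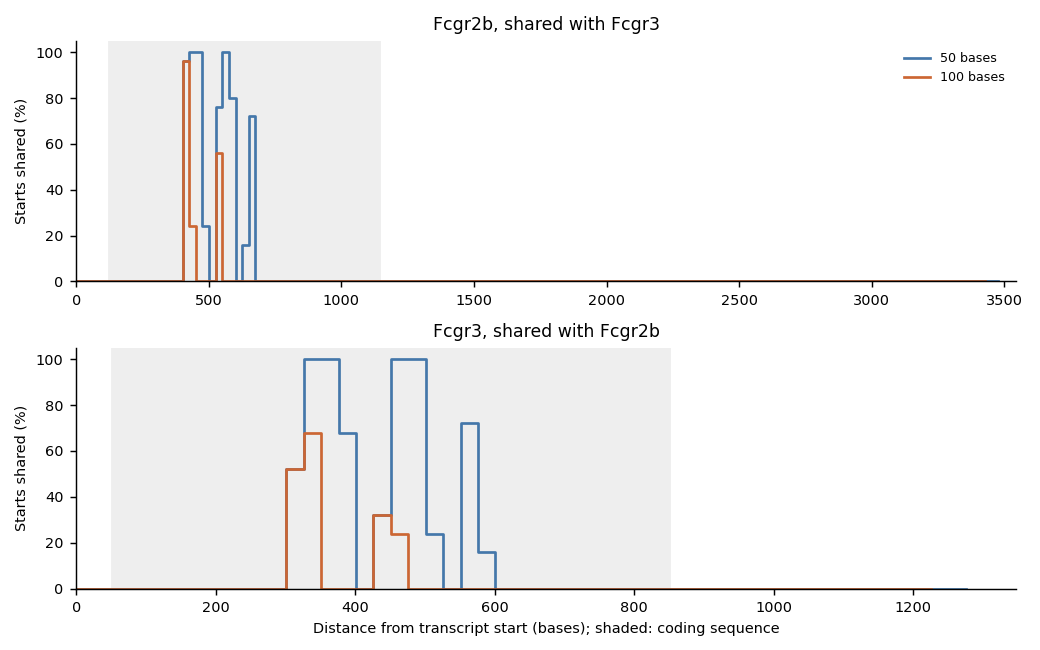
Share (%) of window start positions, in bins of 25 bases along the longest coding transcript, at which 50 (blue) or 100 (orange) bases occur unchanged in the other gene (top, Fcgr2b; bottom, Fcgr3; shaded, coding sequence). Shared windows start between positions 402 and 668 of Fcgr2b and between 313 and 579 of Fcgr3, and none lie elsewhere.

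Fcgr2b levels differed between subsets in control mice. LYVE1+CX3CR1+ controls had 111, 84.9 and 116 CPM, MHCII+CD11c− controls 181, 107 and 126 CPM, and MHCII+CD11c+ controls 248, 163 and 241 CPM. Every LYVE1+CX3CR1+ control lay below every MHCII+CD11c+ control, and MHCII+CD11c− controls overlapped with both. MHCII+CD11c+ controls were 2.09-fold higher than LYVE1+CX3CR1+ controls (log2 fold change of LYVE1+CX3CR1+ over MHCII+CD11c+ −1.06 ± 0.26 SE, edgeR adjusted p = 0.00615, between 0.000306 and 0.0425 over 15 alternatives). In this comparison 15.2% of all tested genes were called at an adjusted p under 0.05. After IC the same pair of subsets had 164, 145 and 69.3 against 132 and 118 CPM and overlapped (0.02 ± 0.29, adjusted p = 0.98). In MHCII+CD11c+ macrophages both IC libraries lay below all 3 controls, 1.74-fold lower in the fit, which did not pass (−0.80 ± 0.30, adjusted p = 0.734). Markers of B cells, which carry FcγRIIb as their Fcγ receptor, summed to 0 to 1.67 CPM in LYVE1+CX3CR1+, 12.2 to 42.2 CPM in MHCII+CD11c− and 1.49 to 6.05 CPM in MHCII+CD11c+ controls, and their part in the Fcgr2b values was not tested.

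Among the activating receptors, Fcgr1, the gene of the high-affinity receptor that also binds monomeric IgG, was called between control subsets, whereas Fcgr3 and Fcgr4 were not. In control mice its level was 58.7, 60.3 and 63.6 CPM in LYVE1+CX3CR1+ macrophages, 132, 76.0 and 140 CPM in the MHCII+CD11c− subset and 17.02, 19.9 and 0.756 CPM in the MHCII+CD11c+ subset. The last of these values rests on 2 counts and comes from the library with 13816 genes detected. The ranges of the 3 control subsets did not overlap, with MHCII+CD11c− highest and MHCII+CD11c+ lowest. MHCII+CD11c+ controls were 8.74-fold lower than MHCII+CD11c− controls (log2 −3.13 ± 0.58, adjusted p = 0.00437; 8.66% of all genes called) and 4.60-fold lower than LYVE1+CX3CR1+ controls (log2 2.20 ± 0.57 for LYVE1+CX3CR1+ over MHCII+CD11c+, adjusted p = 0.0184). Without control library 3 of MHCII+CD11c+, these were −2.65 and 1.72 (adjusted p = 3.03e-05 and 0.000431), and without control library 3 of LYVE1+CX3CR1+ the latter was lost (2.14, adjusted p = 0.0579). Over all alternatives the adjusted p of the latter ran from 0.000431 to 0.0624. With only the groups compared in the fit neither passed (adjusted p = 0.0741 and 0.0594).

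After IC, Fcgr1 had 226, 324 and 300 CPM in MHCII+CD11c− and 108 and 91.3 CPM in MHCII+CD11c+ macrophages, in each case above all controls of the subset. LYVE1+CX3CR1+ libraries had 111, 57.9 and 111 CPM after IC and overlapped with their controls. MHCII+CD11c+ macrophages after IC lay below MHCII+CD11c− macrophages without overlap, 2.85-fold lower in the fit, which did not pass (−1.51 ± 0.61, adjusted p = 0.256). Against LYVE1+CX3CR1+ macrophages after IC they overlapped (−0.09 ± 0.58 for LYVE1+CX3CR1+ over MHCII+CD11c+, adjusted p = 0.949). The fitted IC to control ratio was 7.50-fold in MHCII+CD11c+ (log2 2.91 ± 0.61, adjusted p = 0.116), 2.45-fold in MHCII+CD11c− (1.29 ± 0.52, adjusted p = 0.417) and 1.53-fold in LYVE1+CX3CR1+ macrophages (0.61 ± 0.53, adjusted p = 0.676), so none of the 3 passed. Against these, the median log2 change of all genes was 0.01, −0.03 and −0.14 in this order of subsets. Without control library 3 of MHCII+CD11c+, which held those 2 counts, the response of that subset passed (2.43, adjusted p = 0.00304), and over the alternatives, 4 of 13 of which called it, the adjusted p ran from 0.000653 to 1. For MHCII+CD11c− macrophages it ran from 0.00376 to 0.743, with 3 calls in 14. The mean of the 3 responses, a contrast added after their values had been seen, was a 3.04-fold rise (1.60 ± 0.32, adjusted p = 0.0165; 3.35% of all genes called). It did not pass without IC library 1 (1.57, adjusted p = 0.0802) or 2 (1.65, adjusted p = 0.0639) of MHCII+CD11c+ macrophages. The response of LYVE1+CX3CR1+ was lower than that of MHCII+CD11c+ macrophages by 2.29 on the log2 scale, a difference that did not pass either (SE 0.80, unadjusted p = 0.0135, adjusted p = 0.456).

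**Figure D3:**
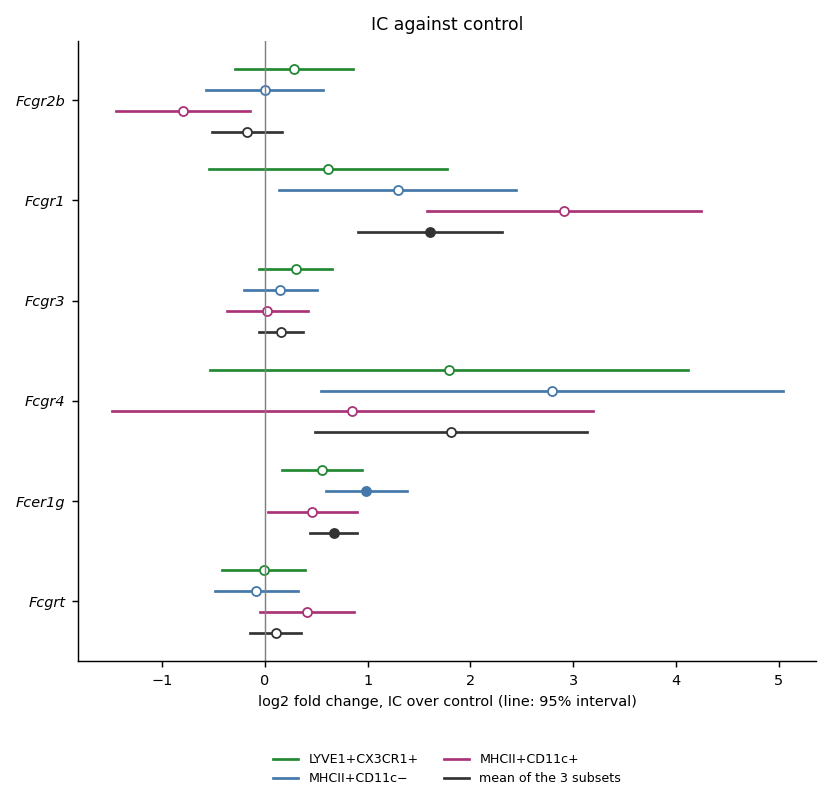
Fitted log2 fold change of IC over control (points; filled where the adjusted p is under 0.05) with its 95% interval (lines) for each gene in the 3 subsets and for their mean. Filled points are Fcer1g in MHCII+CD11c− macrophages (0.99) and the mean responses of Fcer1g (0.67) and Fcgr1 (1.60), while intervals of Fcgr4 are the widest.

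Fcgr3, the gene of a low-affinity receptor for complexed IgG, had group means between 254 and 399 CPM. Its control levels were 317, 319 and 337 CPM in LYVE1+CX3CR1+ macrophages, 309, 336 and 349 CPM in the MHCII+CD11c− subset and 202, 276 and 284 CPM in the MHCII+CD11c+ subset. The MHCII+CD11c+ controls lay below all others, by a difference that did not pass (0.35 ± 0.16 for LYVE1+CX3CR1+ over MHCII+CD11c+, adjusted p = 0.157). After IC the levels were 434, 388 and 376 CPM, 421, 350 and 332 CPM, and 268 and 248 CPM in the same order. LYVE1+CX3CR1+ macrophages were then 1.55-fold higher than MHCII+CD11c+ macrophages, with no overlap (0.63 ± 0.18, adjusted p = 0.0253; 11.9% of all genes called). This call was lost without IC library 1 of LYVE1+CX3CR1+ (adjusted p = 0.0592) and without IC library 1 (0.133) or 2 (0.281) of MHCII+CD11c+ macrophages, the last being the highest over the alternatives, which began at 0.00116. IC moved Fcgr3 by 0.30 ± 0.16, 0.15 ± 0.16 and 0.02 ± 0.18 in the same order (adjusted p = 0.414, 0.875 and 1), with 95% intervals that reach 0.65, 0.50 and 0.42.

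Fcgr4, the gene of a receptor of intermediate affinity found on monocytes, macrophages and neutrophils, was the rarest member, with at most 3 counts in 3 libraries. There were 10, 1 and 14 counts in LYVE1+CX3CR1+ controls, 18, 28 and 4 in controls of the MHCII+CD11c− subset and 29, 1 and 32 in controls of the MHCII+CD11c+ subset. After IC there were 36, 10 and 0, then 65, 142 and 104, and then 84 and 50 counts. MHCII+CD11c− macrophages had 14.4, 29.3 and 28.6 CPM after IC, each above their controls at 3.84, 4.95 and 1.34 CPM, while the other subsets overlapped. Their fitted IC to control ratio was 6.93-fold and did not pass (log2 2.79 ± 1.02, adjusted p = 0.298, between 0.0299 and 0.73 under other settings). The mean response was 3.51-fold, also without a call (1.81 ± 0.60, adjusted p = 0.107), and it passed without IC library 3 of LYVE1+CX3CR1+, which had 0 counts (2.01, adjusted p = 0.0307). With surrogate variables in the fit the mean response was 0.40 (adjusted p = 0.936).

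Markers of other cells that carry Fcγ receptors were present, and not all were low. Ccr2, listed as a monocyte marker, had means of 862 and 846 CPM in MHCII+CD11c+ macrophages in control and after IC. The other monocyte markers had means of at most 21.7 CPM in that subset. Neutrophil markers (7 genes, summed) lay at 39.8 to 278 CPM in MHCII+CD11c− controls and 63.3 to 110 CPM after IC, and at 84.1 to 394 and 25.1 to 30.4 CPM in MHCII+CD11c+ macrophages. In MHCII+CD11c− macrophages the means of S100a9, S100a8 and Ltf were 42.5, 14.7 and 32.9 CPM in control. After IC they were 5.93, 2.81 and 0.618 CPM. Retnlg, Camp and Ly6g were lower too, whereas Csf3r went from 49.3 to 69.0 CPM. None of the 7 passed the test of IC in that subset. Ly6g, which defines neutrophils, was at or under the floor in 14 of 17 libraries, with its highest group mean, 3.79 CPM, in MHCII+CD11c+ controls. Monocyte markers (5 genes) lay at 236 to 515 and 229 to 484 CPM in MHCII+CD11c− macrophages and at 556 to 1169.6 and 756 to 1018 CPM in the MHCII+CD11c+ subset. By gene, their means in MHCII+CD11c− macrophages in control and after IC were 355 and 274 CPM for Ccr2, 3.10 and 1.85 CPM for Ly6c2, 12.1 and 90.9 CPM for Plac8, 6.52 and 11.5 CPM for Ace and 0.953 and 5.24 CPM for Treml4. None of the 5 passed the test there, and they did not move in one direction. The part of such cells in the Fcgr1 and Fcgr4 values was not tested. In bulk libraries, fewer cells with a transcript and less of it per cell cannot be told apart.

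Fcer1g, the γ chain that FcγRI, FcγRIII and FcγRIV need for signalling and surface display, was the only member called among the 18 tests of IC by subset (0.626% of all genes called over these 3 contrasts). Its levels rose from 216, 197 and 260 CPM in MHCII+CD11c− controls to 398, 442 and 495 CPM after IC, with no overlap. This was a 1.98-fold rise (log2 0.99 ± 0.18, adjusted p = 0.00612), in a comparison where 0.701% of all genes were called. The call was lost without control library 1 (0.97, adjusted p = 0.0541) or IC library 3 (0.90, adjusted p = 0.06) of MHCII+CD11c− macrophages and held in 12 of 14 alternatives. LYVE1+CX3CR1+ macrophages had 254, 332 and 268 CPM in controls and 372, 412 and 469 CPM after IC, and MHCII+CD11c+ macrophages 229, 172 and 246 and then 273 and 320 CPM. Every IC library thus lay above every control of its subset, although these differences did not pass (0.55 ± 0.18, adjusted p = 0.141, with 0.963% of all genes called, and 0.46 ± 0.20, adjusted p = 0.839, with 0.216%).

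Averaged over the 3 subsets, again as a contrast added after the values had been seen, Fcer1g rose 1.59-fold (0.67 ± 0.11, adjusted p = 0.000606) and was called in 25 of 25 alternatives, with an adjusted p of at most 0.0039. Its response did not pass a test of difference between any pair of subsets (adjusted p = 0.737, 0.986 and 1). Mast cells carry the same γ chain in their IgE receptor. Their markers (5 genes, summed) lay at 0.353 to 4.69 CPM in MHCII+CD11c− controls and at 1.11, 2.48 and 32.3 CPM after IC, and at 0.425 to 3.40 CPM in MHCII+CD11c+ controls and 20.4 to 46.2 CPM in the 2 libraries after IC, and their part in the Fcer1g values was not tested. Kit and Cpa3, which define mast cells, were at or under the floor in 13 of 17 libraries each. Their means were 0.451 and 0 CPM in MHCII+CD11c+ controls and 11.6 and 4.75 CPM after IC, and 0 and 0.588 CPM in MHCII+CD11c− controls and 1.03 and 1.99 CPM after IC, and none of these differences passed (adjusted p = 0.737, 0.618, 0.368 and 0.849). Ms4a2, the β chain of the IgE receptor, had group means of at most 0.446 CPM.

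Fcgrt was lower in MHCII+CD11c+ macrophages than in both other subsets, in control mice and after IC. Its levels were 730, 621 and 758 CPM in LYVE1+CX3CR1+ controls, 716, 437 and 656 CPM in the MHCII+CD11c− subset and 115, 91.4 and 82.8 CPM in the MHCII+CD11c+ subset. After IC they were 702, 682 and 705 CPM, 584, 468 and 657 CPM, and 141 and 116 CPM. Every MHCII+CD11c+ library, with or without IC, lay below every library of the other subsets.

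MHCII+CD11c+ controls were 7.27-fold lower than LYVE1+CX3CR1+ controls (log2 2.86 ± 0.20 for LYVE1+CX3CR1+ over MHCII+CD11c+, adjusted p = 7.56e-10) and 6.24-fold lower than MHCII+CD11c− controls (−2.64 ± 0.20 for MHCII+CD11c+ over MHCII+CD11c−, adjusted p = 6.88e-09). After IC the gaps were 5.43-fold (2.44 ± 0.23, adjusted p = 1.53e-07) and 4.44-fold (−2.15 ± 0.23, adjusted p = 3.76e-06; 4.03% of all genes called). All 4 calls held in every alternative run. The LYVE1+CX3CR1+ and MHCII+CD11c− groups differed by 0.22 ± 0.18 in controls (adjusted p = 0.861) and 0.29 ± 0.19 after IC (adjusted p = 0.384), with 95% intervals of −0.19 to 0.63 and −0.12 to 0.70. IC moved Fcgrt by −0.01 ± 0.18 in LYVE1+CX3CR1+ macrophages, −0.08 ± 0.18 in the MHCII+CD11c− subset and 0.41 ± 0.21 in the MHCII+CD11c+ subset (adjusted p = 0.996, 0.956 and 1), and in the last subset both IC libraries lay at or just above the highest control.

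Rcn3, which lies 0.768 kb from Fcgrt and encodes a calcium-binding protein of the secretory pathway, was also lowest in MHCII+CD11c+ controls, with 102 CPM in LYVE1+CX3CR1+ controls, 121 in the MHCII+CD11c− subset and 9.96 in the MHCII+CD11c+ subset (log2 3.37 ± 0.44 for LYVE1+CX3CR1+ over MHCII+CD11c+, adjusted p = 3.44e-05). B2m, the gene of the light chain that FcRn needs, had means of 838 CPM in MHCII+CD11c+ controls and 1168 CPM in both other control subsets, and none of the subset contrasts called it (0.48 ± 0.19 for LYVE1+CX3CR1+ over MHCII+CD11c+ controls, adjusted p = 0.0977). Dendritic cell markers (4 genes, summed) lay at 83.0 to 200.1 CPM in MHCII+CD11c+ libraries and at 6.61 to 71.5 CPM in the other 2 subsets, and their part in the Fcgrt and Fcgr1 differences was not tested.

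**Figure D4:**
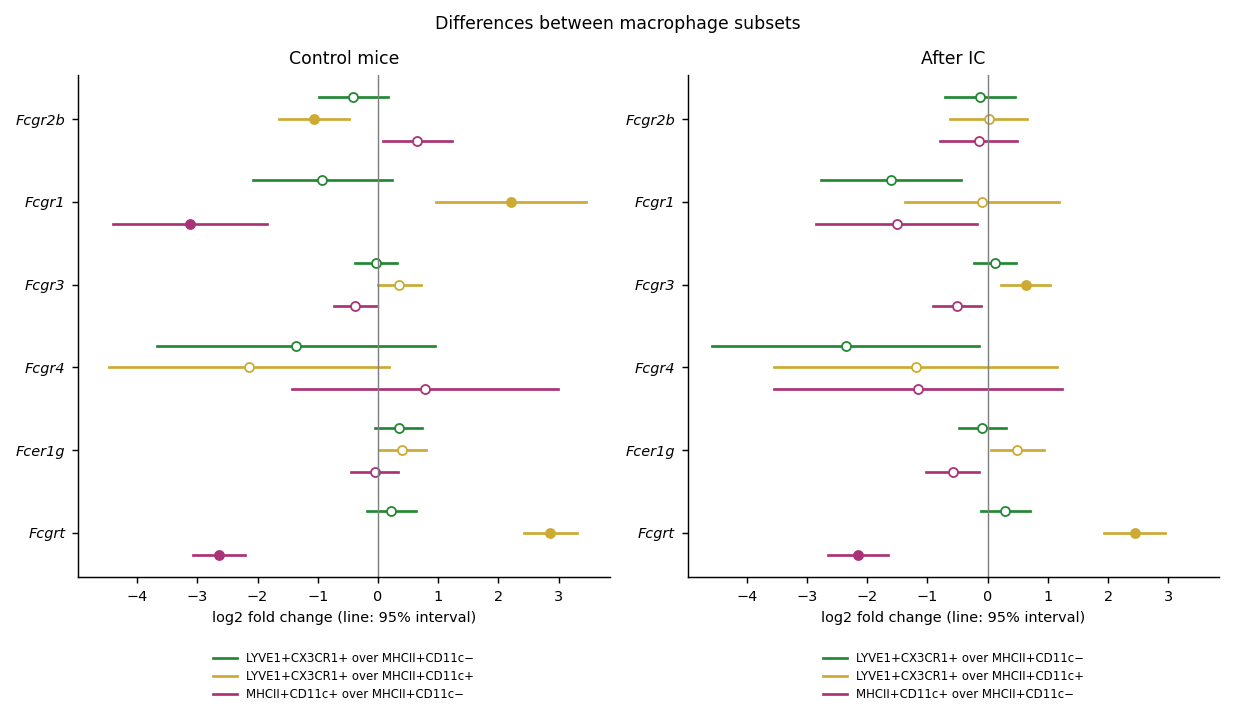
Fitted log2 fold changes between subsets (points; filled where the adjusted p is under 0.05) with 95% intervals (lines), in control mice (left) and after IC (right). Fcgrt separates MHCII+CD11c+ macrophages from both other subsets in both panels, while Fcgr1 and Fcgr2b have filled points in controls only. After IC the fitted gap of Fcgr1 for MHCII+CD11c+ over MHCII+CD11c− was −1.51 and did not pass.

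Counted together, 5 of 18 tests of subsets in controls were called (8.48% of all genes over the same 3 contrasts) and 3 of 18 after IC (7.17%). None of the 12 tests between LYVE1+CX3CR1+ and MHCII+CD11c− macrophages was among them (1.56% of all genes called in controls and 5.54% after IC). At an unadjusted p under 0.05 there were 0 of 6 such tests in controls and 2 of 6 after IC, and voom called 1 in each, Fcgr1, while DESeq2 called 0. After IC, Fcgr1 and Fcgr4 had the largest fitted gaps of this pair, 3.04-fold and 5.13-fold lower in LYVE1+CX3CR1+ macrophages (−1.60 ± 0.53 and −2.36 ± 1.01, adjusted p = 0.104 and 0.181). Libraries of the groups compared did not overlap in 9 of 18 tests of IC, with the IC libraries above in 8 of them. Over all genes the share without overlap was 23.1% in MHCII+CD11c+, 17.2% in MHCII+CD11c− and 21.6% in LYVE1+CX3CR1+ macrophages, and the share with the IC libraries above was 14.1%, 8.72% and 4.95%. Of 18 tests for a difference between the IC responses of 2 subsets, edgeR, voom and DESeq2 called 0 (0.0196% of all genes over the 3 contrasts, 0.0262% for LYVE1+CX3CR1+ against MHCII+CD11c−, 0.0327% for LYVE1+CX3CR1+ against MHCII+CD11c+ and 0% for the remaining pair), and 2 had an unadjusted p under 0.05, both between LYVE1+CX3CR1+ and MHCII+CD11c+ macrophages (Fcgr1 as above and Fcgr2b with 1.08 ± 0.39, unadjusted p = 0.0115).

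Ordered by group mean, Fcgr1 ran from MHCII+CD11c− after IC down to MHCII+CD11c+ controls, and only the first and the last step of that order separated neighbouring groups whose libraries did not overlap. For Fcgr4 the separation lay below MHCII+CD11c− after IC, the highest group. For Fcgr2b it lay only between LYVE1+CX3CR1+ controls, the lowest group by mean, and the next, MHCII+CD11c+ after IC. LYVE1+CX3CR1+ controls still overlapped with LYVE1+CX3CR1+ macrophages after IC and with both MHCII+CD11c− groups. For Fcer1g the libraries of MHCII+CD11c− and LYVE1+CX3CR1+ macrophages after IC lay above those of MHCII+CD11c+ macrophages after IC, while the 4 lower groups overlapped in turn. For Fcgr3 and Fcgrt the step lay between MHCII+CD11c+ groups and all others, and for Fcgrt also between MHCII+CD11c+ after IC and in control.

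Levels of different genes were set side by side per kilobase of the longest coding transcript. In MHCII+CD11c− controls Fcgrt had 341, Fcer1g 329, Fcgr3 246, Fcgr1 44.8, Fcgr2b 39.0 and Fcgr4 2.69 CPM per kb. In MHCII+CD11c+ controls the order was Fcer1g with 316, Fcgr3 with 189, Fcgr2b with 61.4, Fcgrt with 54.6, Fcgr4 with 4.90 and Fcgr1 with 4.85 CPM per kb. In every group Fcgr3 had the highest level per kb of the activating receptor genes, and Fcer1g lay above each of them. Per kilobase of all exons of a gene, Fcgr2b is lower (23.9 and 37.6 CPM per kb in the same groups), since its exons add up to 5790 bases and its longest coding transcript to 3544.

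The ratio of activating to inhibitory receptor RNA was taken in each library as the sum of Fcgr1, Fcgr3 and Fcgr4 counts over Fcgr2b counts. Counts were not divided by transcript length, so a ratio near 1 does not mean equal levels. Per kb, Fcgr3 had 189 and Fcgr2b 61.4 CPM in MHCII+CD11c+ controls. Whether the Fcgr2b reads of these mice, labelled Fcgr2b-KO, can encode the receptor is not shown. The ratio was 3.40, 4.47 and 3.47 in LYVE1+CX3CR1+ controls, 2.45, 3.88 and 3.89 in the MHCII+CD11c− subset and 0.905, 1.81 and 1.23 in the MHCII+CD11c+ subset. After IC it was 3.38, 3.10 and 7.03, then 4.16, 5.00 and 5.77, and then 2.95 and 2.96. The ratio was lowest in MHCII+CD11c+ controls, below all other libraries, and it was higher after IC than in every control of the subset in MHCII+CD11c− and MHCII+CD11c+ but not in LYVE1+CX3CR1+ macrophages.

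On the log2 scale the mean ratio moved from 1.91 ± 0.22 to 2.07 ± 0.65 (SD, n = 3) in LYVE1+CX3CR1+ macrophages, from 1.74 ± 0.38 to 2.30 ± 0.24 in the MHCII+CD11c− subset and from 0.34 ± 0.50 (n = 3) to 1.56 (n = 2) in the MHCII+CD11c+ subset. Averaged over subsets this was a 1.57-fold higher ratio after IC (log2 0.65, against a pooled SD between libraries of 0.41). LYVE1+CX3CR1+ macrophages were 2.05-fold above MHCII+CD11c+ macrophages over both treatments (1.04, pooled SD 0.45), MHCII+CD11c− macrophages were 2.10-fold above them (log2 −1.07 for MHCII+CD11c+ over MHCII+CD11c−, pooled SD 0.36), and LYVE1+CX3CR1+ and MHCII+CD11c− macrophages differed by −0.03 (pooled SD 0.41). These are descriptions with no p-value, because the sum is made of members chosen with earlier results of these data known.

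The components of the ratio differed. Fcgr1 to Fcgr2b had a geometric mean of 0.0297 in MHCII+CD11c+ controls and 0.796 after IC, where 1 control library rests on 2 Fcgr1 counts, and of 0.830 and 2.05 in MHCII+CD11c− macrophages. Fcgr3 to Fcgr2b went from 1.17 to 2.07 and from 2.45 to 2.67 in the same subsets. With Fcgr1 left out of the sum, the average difference after IC was 0.39 in place of 0.65. The pooled SD of 0.41 is the spread of single libraries for the sum with Fcgr1. No spread is given for the sum without it, so whether 0.39 lies beyond that spread is not shown. Fcer1g relative to the activating sum was 0.495 in MHCII+CD11c− controls, with all 3 libraries below those of the other control subsets, and 0.656 after IC, while the other 4 groups had geometric means of 0.733 to 0.840.

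**Figure D5:**
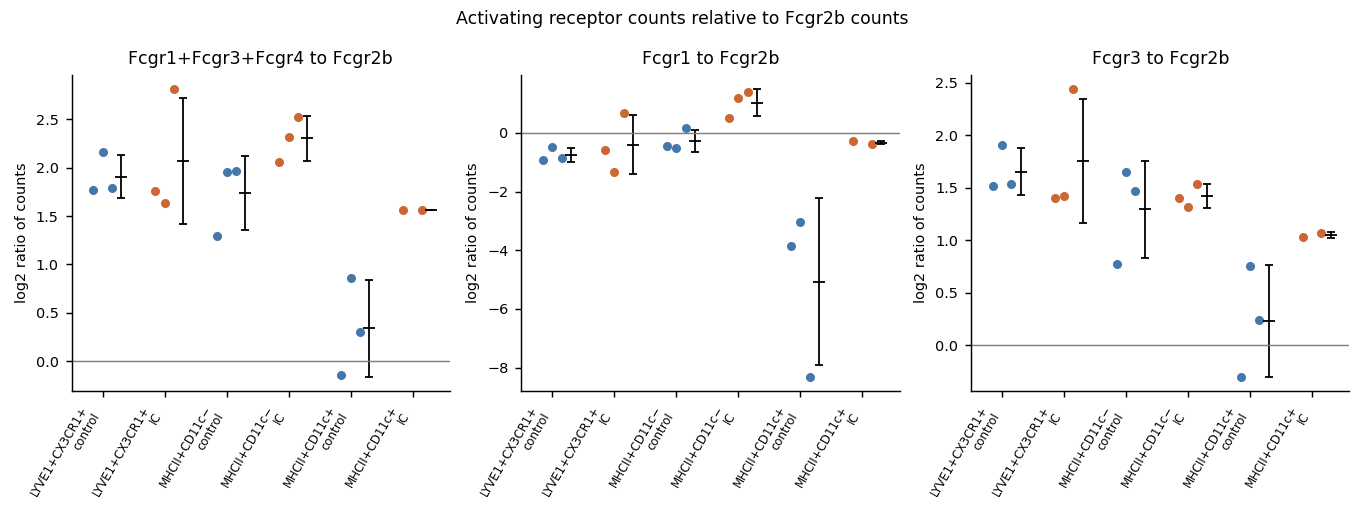
Log2 ratios of counts in each library (blue, control; orange, IC) with group mean and SD (black bars), for the activating sum (left), Fcgr1 (middle) and Fcgr3 (right), each over Fcgr2b. MHCII+CD11c+ controls have the lowest ratios in all 3 panels, and the lowest point of the Fcgr1 panel is the library with 2 Fcgr1 counts.

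Over the 17 libraries, Fcgrt and Fcgr3 had the highest correlation among the 6 genes (Pearson r = 0.77, log2 CPM), and Fcgr2b correlated negatively with Fcgr1 (−0.50) and Fcgrt (−0.51). These libraries share subsets, treatments and depth, so the values are descriptions. The genes most like Fcgr1 were Nxpe5 (r = 0.945), Ms4a6b (0.941) and Max (0.934), and those most like Fcgrt were Tcn2 (0.985), Stard8 (0.985) and Serinc3 (0.983). Fcgr3 was most like Slco2b1 (0.907), Tigd2 and Tmem37, Fcer1g most like Hspa1a (0.917), Inafm2 and Arpc3, Fcgr4 most like Por (0.846), Oasl1 and Nsun2, and Fcgr2b most like Eno4 (0.840), Sdccag8 and Ptcd2.

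Among 15 other immunoglobulin receptors and their partners, 12 were in the table and 8 were tested, and none was called after IC in a single subset. Averaged over subsets, in the contrast added after the values had been seen, B2m rose by 0.42 ± 0.11 on the log2 scale (adjusted p = 0.0392; 3.35% of all genes called). Fcrls, a scavenger receptor-like relative of the Fc receptors, was the only one called between subsets, at 121 ± 41.2 CPM in LYVE1+CX3CR1+ and 687 ± 262 CPM in MHCII+CD11c+ controls (−2.51 ± 0.65, adjusted p = 0.0217; n = 3 each). After IC it was lower in LYVE1+CX3CR1+ macrophages (28.7 ± 28.1 CPM) than in MHCII+CD11c− (207 ± 63.7 CPM, adjusted p = 0.0312) and MHCII+CD11c+ macrophages (363 ± 20.5 CPM, n = 2, adjusted p = 0.0066). Tyrobp, the adaptor DAP12 of other activating receptors, moved by 0.35 ± 0.18, 0.12 ± 0.18 and 0.00 ± 0.20 after IC in LYVE1+CX3CR1+ macrophages, the MHCII+CD11c− subset and the MHCII+CD11c+ subset (adjusted p = 0.385, 0.934 and 1).

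All of 25 kinases, adaptors and phosphatases next to the receptors were tested. Between subsets in controls, 13 were called for LYVE1+CX3CR1+ against MHCII+CD11c+ (5 of them higher in LYVE1+CX3CR1+ and 8 in MHCII+CD11c+), 7 for the MHCII+CD11c+ against the MHCII+CD11c− subset (5 of them higher in MHCII+CD11c+ and 2 in MHCII+CD11c−) and 1, Dok3, for LYVE1+CX3CR1+ against MHCII+CD11c− (89.7 ± 12.1 against 40.5 ± 9.58 CPM, adjusted p = 0.0271). Over all genes 15.2%, 8.66% and 1.56% were called in these comparisons. After IC, 10 of the 25 were called for the first pair (1 higher and 9 lower in LYVE1+CX3CR1+; 11.9% of all genes), 3 for the second (all higher in MHCII+CD11c+; 4.03%) and 3 for the third (all lower in LYVE1+CX3CR1+; 5.54%). Named by smallest p, LYVE1+CX3CR1+ controls had more Dok3, an inhibitory adaptor (89.7 ± 12.1 against 16.2 ± 3.71 CPM, adjusted p = 1.46e-06), and less Fgr, a Src-family kinase (19.6 ± 10.7 against 148 ± 17.3 CPM, adjusted p = 6.38e-06), and Prkcd, a protein kinase C (231 ± 7.55 against 504 ± 13.8 CPM, adjusted p = 6.78e-05), than MHCII+CD11c+ controls (n = 3 each). Averaged over subsets, in the contrast added after the values had been seen, 5 of the 25 were called higher and none lower. Over all genes 3.35% were called in that contrast. Among the 5 were Inpp5d, the gene of the phosphatase SHIP1 that FcγRIIb recruits (0.48 ± 0.10, adjusted p = 0.00692), the exchange factor Vav1 (0.46 ± 0.09, adjusted p = 0.00676) and Dok3 (0.75 ± 0.16, adjusted p = 0.0105). The median log2 change of the 25 genes was −0.02 in that contrast and −0.07 over all genes.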

How the data were processed

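Total RNA of FACS-sorted synovial macrophages was made into libraries with the SMARTer stranded total RNA pico kit for paired-end sequencing. Reads were trimmed by the authors with Trim Galore, aligned with HISAT2 to mm10 and assigned to genes with featureCounts, and the authors deposited raw counts per gene. Tool versions, the annotation and the use of strand and of reads with several alignments are not given in the sources used here. The deposited counts of 17 libraries were used, and 1 further column, with a total of 0, matched no sample and was left out. Library totals ran from 2301913 to 7248939.

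The members and gene lists were chosen with earlier results of these data known. Groups came from the sample labels. Genes were filtered (filterByExpr, minimum count 10), scaled by TMM and fitted over all 17 libraries with edgeR's robust quasi-likelihood F test (edgeR 4.0.16, limma 3.58.1, R 4.3.3; 15272 genes, 11 residual degrees of freedom, biological coefficient of variation 45.1%). P-values were adjusted by Benjamini and Hochberg over all genes of a contrast and called under 0.05, and the 95% intervals use the t distribution with 11 degrees of freedom. The fit was tested on simulated data. DESeq2 1.42.0, voom with quality weights, svaseq (sva 3.50.0, 5 surrogate variables), other scalings and filters, a replicate block and leaving out each library were the alternatives. The mean of the 3 IC responses and the ratios by subset and treatment were added after seeing the data. Permutation tests of the ratios had been planned, and their p-values are not given because the ratios are sums over the chosen members.

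Named genes were the 6 members, the 3 genes most correlated with each over 17 libraries (log2 CPM, prior count 2), and, from each list, up to 3 called genes per contrast by smallest p. Neighbouring genes came from GENCODE M21, promoters from RefSeq (GRCm38.p6). Python 3.11.15 with pandas 2.3.3 and numpy 2.4.6 was used for counts of shared sequence, ratios and plots. Some genes of the lists and neighbourhoods are not reported here.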

Additional observations from a re-analysis of the deposited data

How the results depend on the processing

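Of the 18 tests of IC by subset, 1 was called, against 2 with DESeq2, 3 with voom, 3 with only the groups compared in the fit and 4 with surrogate variables. Leaving out a library gave 0 to 2 (0 without control library 1 or IC library 3 of MHCII+CD11c−, 2 without control library 3 of MHCII+CD11c+ macrophages). Of the 18 tests of subsets after IC, 3 were called, against 5 with only the groups compared, 6 with surrogate variables and 7 with voom, and 2 to 3 without a library. The 5 calls in controls became 4 to 6 without a library, and the 0 calls between IC responses stayed 0. Where the number of calls changed, the cause was not tested. Leaving out a library moved the log2 difference of the activating to inhibitory ratio to between 0.53 and 0.74 for IC, 0.85 and 1.17 for LYVE1+CX3CR1+ against MHCII+CD11c+, −0.22 and 0.08 for LYVE1+CX3CR1+ against MHCII+CD11c− and −1.20 and −0.95 for MHCII+CD11c+ against MHCII+CD11c−. For single genes, a threshold of adjusted p under 0.01 in the main fit, which can only lose calls, was counted as a further alternative. With it included, 25 alternatives gained a call, 14 lost one and 1325 changed neither call nor called direction.

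Within a treatment, the deviations of samples with the same replicate number correlated by 0.00129 to 0.286, all positive, with 2 of 16 over 0.1, both between library 2 of control subsets. Across treatments the correlations ran from −0.153 to 0.0817. Since not every pair was over 0.1, the numbers were not taken to pair samples in the main fit. That rule does not exclude that libraries of 1 treatment with the same number belong together. With the replicate block the calls were 1 after IC, 5 in controls, 3 after IC between subsets and 0 between IC responses, and the ratio differed by 0.99, −0.03 and −1.09 within pairs of the same number for the 3 pairs of subsets. Precision was limited by 2 to 3 libraries per group and, for Fcgr4 and for Fcgr1 in MHCII+CD11c+ controls, by counts that reach the floor of 3, which covers counting error only.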
